A study of Homo sapiens with 24 samples.

Results

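The miR-532 to miR-502 cluster is a row of microRNA hairpins within CLCN5, the gene of a chloride/proton exchanger, and 10 of its mature miRNAs were followed across 6 groups of OV90 libraries. They were taken by name from the 2656 mature miRNAs in the deposited table, and are hsa-miR-532-5p, hsa-miR-532-3p, hsa-miR-188-5p, hsa-miR-500a-5p, hsa-miR-500a-3p, hsa-miR-362-5p, hsa-miR-362-3p, hsa-miR-501-3p, hsa-miR-660-5p and hsa-miR-502-3p (the human prefix is left out from here on). Of the 10, 9 reached a level of 1 CPM, counts scaled per library to a common total by TMM, in at least 4 libraries and were tested with the 905 miRNAs that did so. miR-362-3p did not, with at most 3 counts in any library and 0 counts in 17 of 24. The 6 other mature miRNAs of the same hairpins (miR-188-3p, miR-501-5p, miR-500b-5p, miR-500b-3p, miR-660-3p and miR-502-5p) were all tested and serve as a second list.

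OV90 is an epithelial ovarian cancer line. The libraries come from cells that carried an inducible shRNA, either the negative control (shNeg), one against RELA (shRELA) or one against RELB (shRELB), and all 6 groups received 1 µg/ml doxycycline for 72 h, the controls included. RELA and RELB encode NF-κB transcription factors of the classical and the alternative pathway, respectively. Each shRNA was studied in adherent culture, in RPMI with serum, and in spheroid culture, in defined medium on ultra-low attachment plastic, with 4 libraries per group. The sample labels call the shNeg cells wild type, whereas the titles name the negative control. Small RNA libraries do not read the RELA and RELB mRNAs, so the knockdown itself was not checked here, and nothing in the labels says whether the 4 libraries of a group came from separate cultures or how many clones or shRNAs were used. The p-values therefore measure the spread between these libraries, which may be technical.

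A hairpin of this kind is cut out of a longer transcript by Drosha and then trimmed by Dicer to a short duplex. Either strand of the duplex can be loaded into an Argonaute protein, and the strand that is not loaded is degraded, so a single hairpin can give a 5p and a 3p miRNA at unequal levels. Hairpins that lie in one primary transcript share its transcription, while the level of each mature strand also depends on its processing, loading and decay. The seed, bases 2 to 8 of the mature strand, does most of the pairing with target mRNAs.

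In GENCODE release 44 (GRCh38) the 8 hairpins span 11536 bases of the plus strand of chromosome X, from MIR532 (chrX:50003148-50003238) and MIR188 (chrX:50003503-50003588) through MIR500A, MIR362, MIR501, MIR500B and MIR660 to MIR502 (chrX:50014598-50014683). All lie within CLCN5 (chrX:49922596-50099235, plus strand) and overlap none of its annotated exons. The mature strands on which the results turn are shown in the order of the hairpins, 5′ to 3′, as RefSeq gives them for GRCh38.p14, with the seed in capitals. 9 of the 10 members were matched by name in that table.

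hsa-miR-532-5p (chrX:50003167-50003188): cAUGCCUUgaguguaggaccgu
hsa-miR-532-3p (chrX:50003204-50003225): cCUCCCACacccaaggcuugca
hsa-miR-188-5p (chrX:50003517-50003537): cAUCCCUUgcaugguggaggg
hsa-miR-500a-5p (chrX:50008443-50008465): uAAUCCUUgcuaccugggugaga
hsa-miR-500a-3p (chrX:50008482-50008503): aUGCACCUgggcaaggauucug
hsa-miR-362-5p (chrX:50008968-50008991): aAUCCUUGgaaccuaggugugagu
hsa-miR-501-3p (chrX:50009772-50009793): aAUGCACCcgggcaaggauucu
hsa-miR-500b-5p (chrX:50010682-50010699): aAUCCUUGcuaccugggu
hsa-miR-502-3p (chrX:50014649-50014670): aAUGCACCugggcaaggauuca

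The sequences fall into related sets. miR-501-3p and miR-502-3p share the seed AUGCACC and differ from each other, counted from the 5′ end of miR-501-3p, by C9U and U22A. miR-500a-3p begins 1 base later in the same motif, has the seed UGCACCU, and shares a run of 20 bases with miR-502-3p. On the 5p side miR-362-5p and miR-500b-5p share the seed AUCCUUG, and the 18 bases of miR-500b-5p are contained whole in miR-500a-5p. Reads of miR-500a-5p and miR-500b-5p, and of miR-500a-3p, miR-501-3p and miR-502-3p, could therefore be split between names by the counting, and these levels are uncertain to that extent. miR-532-5p (seed AUGCCUU), miR-532-3p (seed CUCCCAC) and miR-188-5p (seed AUCCCUU) share no run of 10 or more bases with another of the 9 matched members, which leave out miR-660-5p.

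The depth of the libraries differed between the cultures. Totals ran from 3797175 to 8283549 counts in the 12 adherent libraries and from 959141 to 3580931 in the 12 spheroid libraries, and the members together gave 4075 to 12800 and 1153 to 4008 of those counts. The limit that 0 counts leaves, taken as 3 counts, was 0.497 to 0.800 CPM in adherent shNeg libraries and 1.54 to 2.29 CPM in spheroid shNeg libraries, and covers counting error only. Spheroid shNeg replicate 1 stood apart, with 432 miRNAs detected against 813 to 885 in the other spheroid shNeg libraries, and with 0 counts of miR-188-5p and miR-501-5p, so the calls that use this group are also given without it. The 5 epithelial marker miRNAs of the miR-200 family summed to 3290 to 3424 CPM in adherent shNeg, 1965 to 2814 in adherent shRELA, 7083 to 9015 in adherent shRELB, 1679 to 2441 in spheroid shNeg, 3482 to 6852 in spheroid shRELA and 7342 to 15883 in spheroid shRELB libraries. The 3 fibroblast markers, in the same order of groups, summed to 315 to 364, 67.8 to 117, 319 to 356, 102 to 161, 63.3 to 92.4 and 184 to 298 CPM. Both lists thus differed without overlap between several of the groups compared here. The single liver marker, miR-122-5p, was at 13732 to 29400 CPM. The other lists summed to at most 18.3 CPM (5 blood markers), 8.40 CPM (3 muscle markers) and 4.21 CPM (1 neuronal marker), and the part of any of them in the results was not tested.

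The makeup of the cluster by strand differed between the cultures under every shRNA. As a whole, the 10 members took 0.107% to 0.120% of all counts in adherent and 0.117% to 0.130% in spheroid shNeg libraries, which overlapped. TMM-scaled, they summed to 1087 to 1318 CPM in adherent and 880 to 1045 CPM in spheroid shNeg libraries, lower without overlap. With shNeg the difference in the members' total thus depended on the scaling. With shRELA the members took 0.147% to 0.185% of all counts in adherent and 0.103% to 0.132% in spheroid libraries. With shRELB they took 0.133% to 0.150% and 0.101% to 0.112%, lower in spheroids without overlap in both cases. Within the members' counts, the 3p strands made up 23.5% to 33.6% in the 12 adherent libraries and 44.1% to 66.8% in the 12 spheroid libraries, so that no adherent library reached the lowest spheroid library. This share needs no scaling between libraries. It is given as a description without a test, since the members were chosen together.

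**Figure D1:**
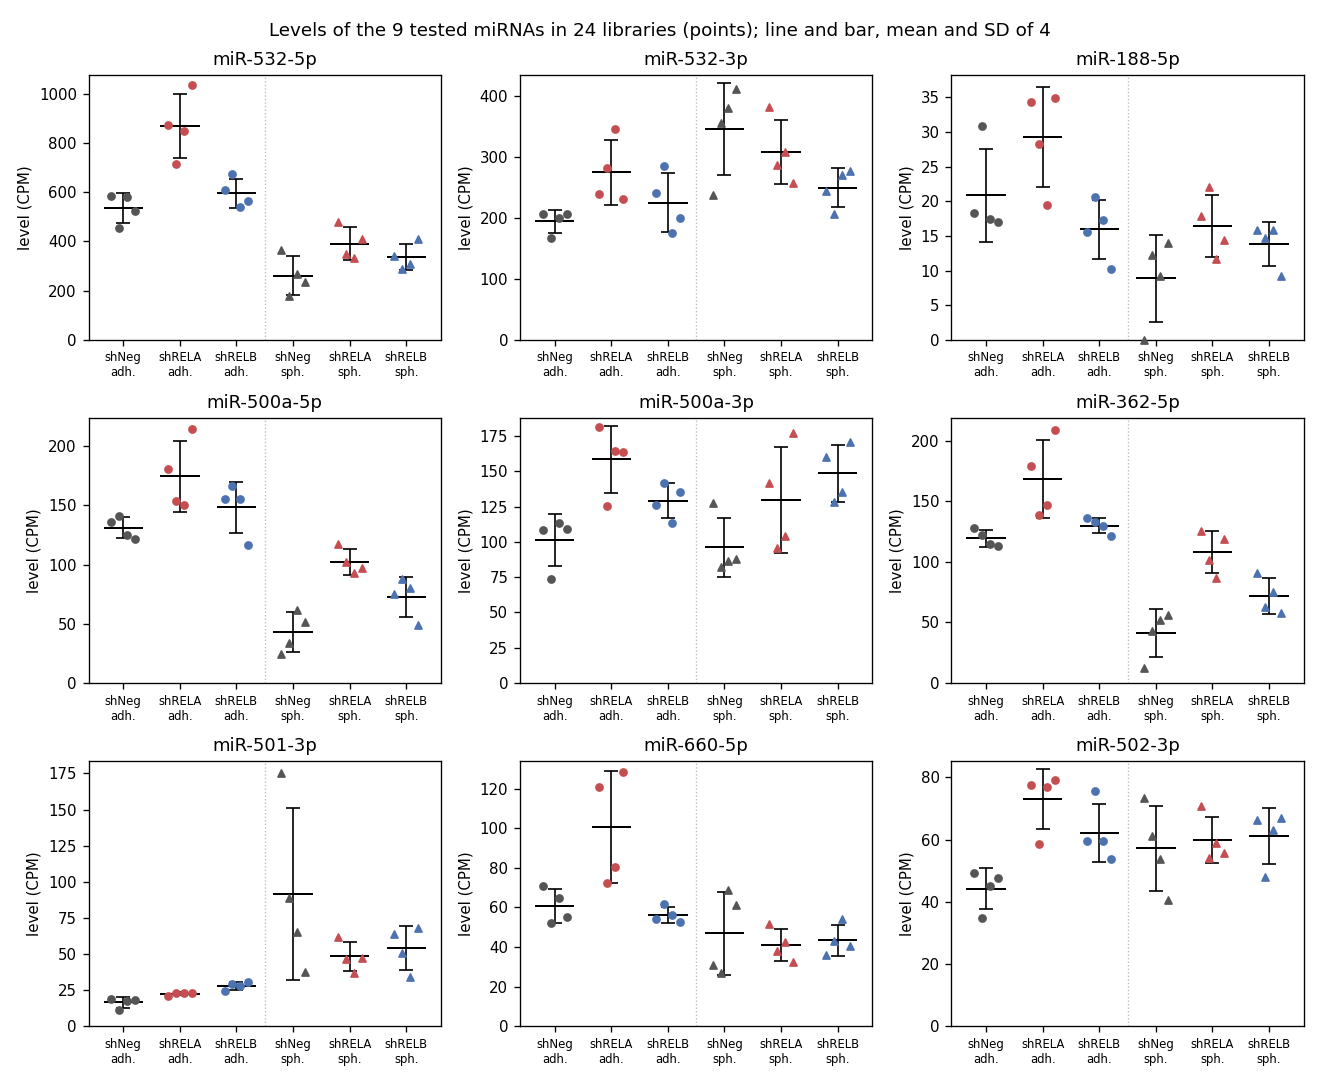
Level (CPM, vertical axis from 0) of the 9 tested miRNAs in each of the 24 libraries, adherent groups as circles on the left and spheroid groups as triangles on the right of each panel; the line and bar are the mean and SD of 4 libraries. miR-532-5p, miR-500a-5p and miR-362-5p sit lower in spheroid shNeg than in adherent shNeg libraries, and miR-501-3p sits higher.

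The first question was how the cluster differed between spheroid and adherent cells with the control shRNA. 4 of the 9 tested members were called at an FDR below 0.01 and a fold change above 2 (edgeR's quasi-likelihood test, Benjamini-Hochberg FDR over 905 miRNAs), 3 of them lower and 1 higher in spheroids. The background was high in this comparison, in which 42.2% of all miRNAs were called, 20.9% lower and 21.3% higher. Of the calls over all miRNAs, 50.5% were higher with TMM scaling and 61.8% with library totals, and the median log2 fold change of all 905 was -0.26 and 0.17 respectively; the values of members stand beside these medians. In RNA from whole cultures, fewer cells with a miRNA and less of it per cell cannot be told apart.

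The 3 miRNAs that fell were all 5p strands. miR-500a-5p was measured at 136.0, 141.3, 125 and 122.02 CPM in adherent shNeg libraries and at 24.9, 33.6, 62.1 and 51.9 CPM in spheroid shNeg libraries. It fell by 1.59 ± 0.24 (SE) on the log2 scale (3.01-fold lower, FDR 9.01e-07, n = 4 and 4, edgeR), with every spheroid library at less than any adherent one. miR-362-5p, which shares its seed with miR-500b-5p, was at 128, 122.1, 115 and 113 CPM in adherent and at 12.5, 42.8, 52.3 and 56.1 CPM in spheroid cells. It fell by 1.54 ± 0.27 on the log2 scale (FDR 1.00e-05, edgeR), again without overlap, and replicate 1 was its lowest library. miR-532-5p, the most counted member in adherent cells, was at 582, 454, 578 and 524 CPM in adherent and at 364, 177, 266 and 234 CPM in spheroid cells. It fell by 1.04 ± 0.20 on the log2 scale (2.05-fold lower, FDR 2.98e-05, edgeR), just past the fold needed for a call. The groups of miR-532-5p did not overlap either.

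The miRNA that rose was a 3p strand. miR-501-3p was at 18.6, 11.2, 17.6 and 18.4 CPM in adherent shNeg and at 175, 88.6, 65.1 and 37.2 CPM in spheroid shNeg libraries, a log2 fold change of 2.46 ± 0.32 (5.52-fold higher, FDR 5.34e-08, edgeR). All spheroid libraries lay above all adherent ones, and spheroid replicate 1 was the highest of them. miR-502-3p, which has the same seed and lies at the far end of the cluster, was at 49.4, 34.7, 45.2 and 47.8 CPM in adherent and at 73.3, 61.1, 53.9 and 40.7 CPM in spheroid cells. Its groups overlapped and it was not called (log2 fold change 0.37 ± 0.22, FDR 0.154, edgeR). The ratio of miR-501-3p to miR-502-3p had a geometric mean of 0.369 in adherent and 1.40 in spheroid shNeg libraries, and the ranges, 0.326 to 0.390 and 0.915 to 2.38, did not overlap. The spheroid ratios were 0.915 to 1.45 without spheroid shNeg replicate 1 (geometric mean 1.17). The ratio of these strands was not planned and was not tested.

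The remaining members did not meet both criteria. miR-532-3p was at 205.7, 167, 199.6 and 207 CPM in adherent and at 237, 355, 381 and 411 CPM in spheroid cells, with no overlap and a log2 fold change of 0.83 ± 0.20 (FDR 7.26e-04, edgeR), short of a 2-fold difference. The opposite strand of the same hairpin, miR-532-5p, thus had a fitted change of the other sign. miR-188-5p was at 18.2, 30.9, 17.4 and 17.0 CPM in adherent and at 0, 12.2, 9.23 and 14.0 CPM in spheroid cells (log2 fold change -1.22 ± 0.43, FDR 0.0158, edgeR). miR-500a-3p and miR-660-5p had log2 fold changes of -0.08 and -0.36 with overlapping groups; both turned positive, at 0.35 and 0.08, when library totals replaced TMM. In all, 2 members lay wholly higher and 4 wholly lower in spheroid libraries, against 16.9% and 30.6% of all miRNAs. Such shares are given only for this comparison and for adherent shRELA against shNeg. Elsewhere, separate groups describe the members without a background.

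Without spheroid shNeg replicate 1 the same 4 members were called, at log2 fold changes of -1.24 (miR-532-5p), -1.40 (miR-500a-5p), -1.24 (miR-362-5p) and 1.94 (miR-501-3p), while miR-188-5p was at -0.82 (FDR 0.0282, edgeR) and miR-532-3p at 0.97, just under 2-fold. miR-532-5p was under 2-fold without adherent shNeg replicate 3 (-0.997, FDR 1.94e-04) and in 5 alternative fits (-0.62 to -0.92), miR-362-5p missed the FDR when only the groups compared were fitted (FDR 0.0244), and miR-188-5p was called without spheroid shNeg replicate 2 (-1.58) or 4 (-1.69) and in 4 alternatives (-1.11 to -1.66). miR-532-3p passed 2-fold and was called in 3 alternative fits (1.11 to 1.28).

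Among the 6 other strands of these hairpins, 1 was called in this comparison. miR-500b-5p was at 82.4, 90.7, 79.97 and 69.1 CPM in adherent and at 3.67, 16.8, 34.4 and 26.0 CPM in spheroid shNeg libraries and fell by 1.96 ± 0.33 on the log2 scale (FDR 4.35e-06, edgeR). It is the 18-base sequence contained in miR-500a-5p, and the ratio of miR-500b-5p to miR-500a-5p was 0.567 to 0.642 in adherent and 0.159 to 0.556 in spheroid shNeg libraries. The fitted changes of the 6 strands were all below 0, between -1.96 and -0.69. On leaving out spheroid shNeg replicate 1 they lay between -1.62, for miR-500b-5p, which was still called, and -0.29, and the ratio of miR-500b-5p to miR-500a-5p was 0.503 to 0.556. That ratio was not planned either and was not tested.

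**Figure D2:**
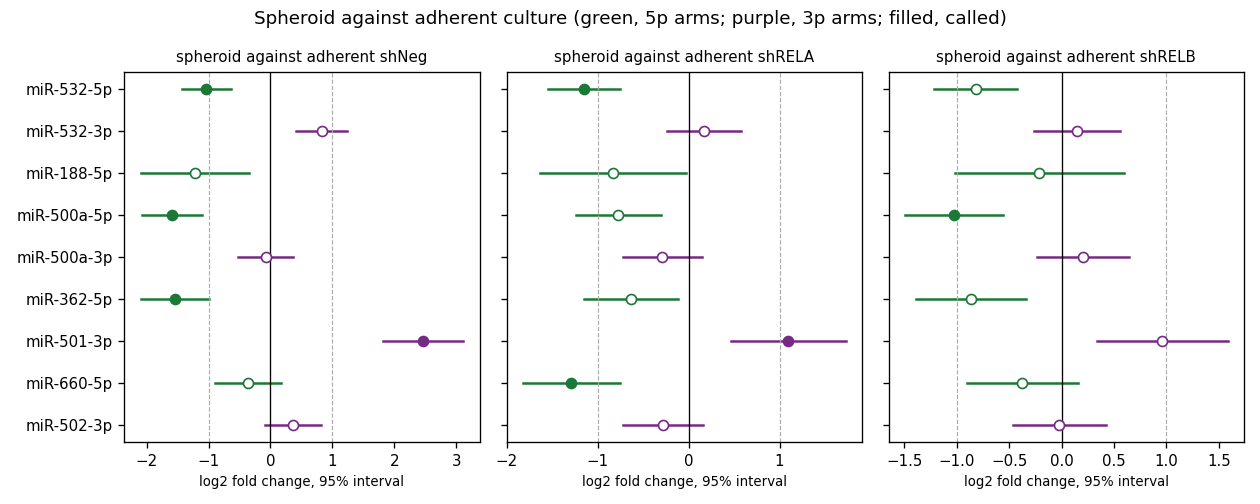
Log2 fold change of spheroid against adherent culture (horizontal axis, with 95% interval) for the 9 tested miRNAs under each shRNA; green marks 5p strands, purple 3p strands, filled points are called and dashed lines mark a 2-fold change. The called 5p strands lie on the left and miR-501-3p on the right, at 2.46 with shNeg, 1.10 with shRELA and 0.96 (not called) with shRELB.

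The culture comparison was repeated in the knockdown cells, which share no libraries with the shNeg comparison. Under shRELA 3 of 9 members were called, 2 lower and 1 higher, where 32.6% of all miRNAs were called, 15.8% lower and 16.8% higher. miR-532-5p was at 873, 715, 848 and 1033 CPM in adherent and at 478, 347, 332 and 408 CPM in spheroid shRELA libraries, and fell by 1.15 ± 0.20 on the log2 scale (FDR 1.26e-05, edgeR). miR-660-5p was at 121, 72.1, 80.6 and 128 CPM in adherent and at 51.5, 37.8, 42.5 and 32.7 CPM in spheroid cells, and fell by 1.29 ± 0.26 (FDR 1.46e-04, edgeR). The groups of both were separate. miR-501-3p was at 21.1, 22.7, 23.2 and 23.2 CPM against 61.9, 46.7, 37.1 and 47.5 CPM, a log2 fold change of 1.10 ± 0.31 (FDR 0.00375, edgeR), with separate groups. miR-500a-5p (-0.77) and miR-362-5p (-0.64) also had separate groups and were under 2-fold. Between the shNeg cultures 16.9% of all miRNAs lay wholly higher and 30.6% wholly lower, and the share under shRELA is not given. The call of miR-501-3p was lost when adherent shRELA replicate 1 or 4, or spheroid shRELA replicate 1 or 4, was left out (0.84 to 1.10), and with median-ratio scaling, DESeq2 or no low-count filter (0.92 to 0.99). That of miR-532-5p fell just under 2-fold with library totals (-0.995) and with a mean of at least 10 CPM (-0.96).

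Under shRELB 1 of 9 members was called, lower in spheroids, where 25.0% of all miRNAs were called and 11.4% were called lower. miR-500a-5p was at 155, 166, 156 and 117 CPM in adherent and at 74.9, 88.1, 79.98 and 49.0 CPM in spheroid cells, and fell by 1.03 ± 0.23 on the log2 scale (FDR 5.51e-04, edgeR). miR-532-5p (-0.82, FDR 9.38e-04, edgeR) and miR-362-5p (-0.86, FDR 0.00749, edgeR) had separate groups, with less than a 2-fold difference. miR-501-3p, at 24.3, 29.0, 27.6 and 30.6 CPM against 63.8, 50.9, 34.4 and 67.7 CPM, was separate as well and narrowly missed both criteria (0.96 ± 0.31, FDR 0.0115, edgeR). The call of miR-500a-5p was lost without adherent shRELB replicate 1 or 2 or spheroid shRELB replicate 4 (-0.999 to -0.947) and in 3 alternative fits (-0.90 to -0.97), while miR-501-3p was called without spheroid shRELB replicate 3 (1.10) and in 2 alternative fits (1.07 and 1.11), and miR-362-5p without a low-count filter (-1.06).

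The strand ratio of a hairpin is taken within a library and needs no scaling between libraries. It was computed from counts plus 0.5, so where a strand has 0 counts it moves with depth, as for miR-362 and for miR-501 in spheroid shNeg replicate 1. For miR-532 the 5p to 3p ratio ran from 2.54 to 2.90 in adherent shNeg, 2.45 to 4.47 in adherent shRELA and 2.36 to 3.10 in adherent shRELB libraries. In spheroids it ran from 0.499 to 1.53 with shNeg, 1.08 to 1.58 with shRELA and 1.14 to 1.48 with shRELB. Every spheroid library thus lay below every adherent one, and 3 of 4 spheroid shNeg libraries held more of miR-532-3p than of miR-532-5p. The geometric mean was 3.69-fold lower in spheroids with shNeg, 2.50-fold with shRELA and 1.99-fold with shRELB. Each difference had a two-sided exact permutation p of 0.0286, the smallest that 4 against 4 libraries allow, and an adjusted p of 0.075 (Benjamini-Hochberg, exact tests of 3 hairpins in 7 comparisons, 8 of 21 at the smallest p), so none passed 0.05 after correction.

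For miR-500a the ratio ran from 1.10 to 1.92 in adherent and from 0.198 to 0.717 in spheroid shNeg libraries, a 3.05-fold lower geometric mean (exact permutation p = 0.0286, adjusted 0.075). Under shRELB it was 2.36-fold lower in spheroids with the same exact p, also without overlap. Under shRELA the ratios, 0.914 to 1.31 and 0.549 to 1.07, overlapped (1.36-fold, exact permutation p = 0.114, adjusted 0.185). Without spheroid shNeg replicate 1 the log2 difference of the ratio between cultures went from -1.88 to -2.23 for miR-532 and from -1.61 to -1.23 for miR-500a. For miR-362 the ratio rests on 0 to 3 counts of the 3p strand against 17 to 1263 counts of the 5p strand, and it was not read further. The miR-501 ratio, whose 5p strand is not a member, was added after the values were seen and is given without a test. It ran from 1.84 to 3.68 in adherent and from 0.00209 to 0.701 in spheroid shNeg libraries, where the lowest value is that of replicate 1 with 0 counts of miR-501-5p and 239 of miR-501-3p. Under shRELA and shRELB it was 1.83 to 2.04 and 1.52 to 1.91 in adherent cells and 0.766 to 1.06 and 0.493 to 1.00 in spheroids. The ratios of miR-660, miR-188 and miR-502 were also added and not tested. For miR-660 the geometric mean was higher in spheroids, 2.51-fold with shNeg, 1.08-fold with shRELA and 2.14-fold with shRELB, always with overlap. For miR-188 it was 3.57, 2.43 and 2.01-fold lower in that order, also with overlap. For miR-502 it was 3.68-fold lower, 1.14-fold higher and 1.90-fold lower, separate only with shRELB. In spheroid shNeg libraries 1 strand of each had as few as 0 counts.

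**Figure D3:**
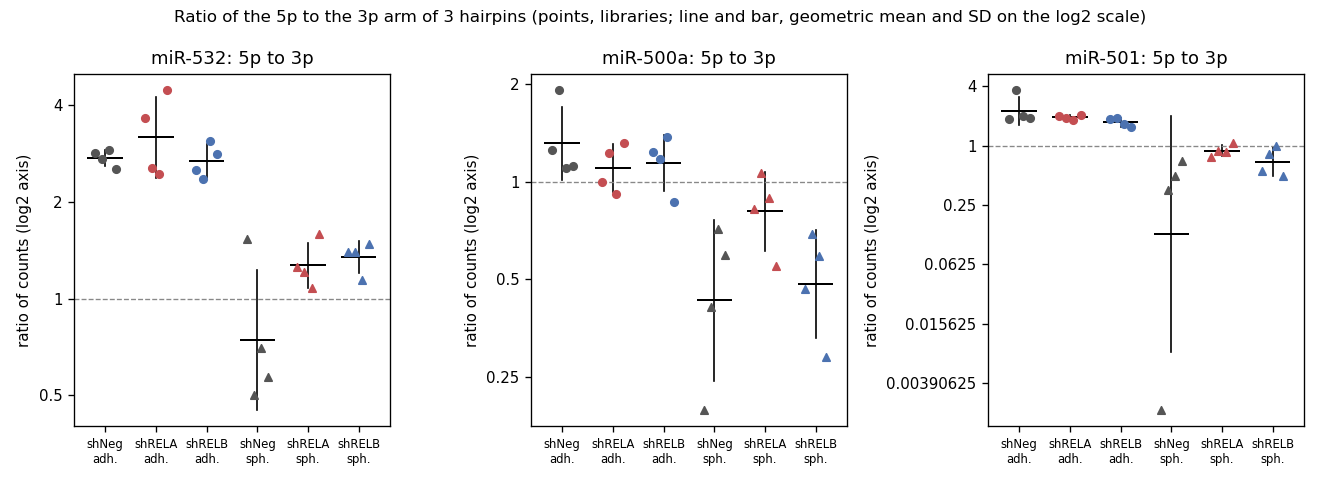
Ratio of 5p to 3p counts (vertical log2 axis; dashed line at 1) of miR-532, miR-500a and miR-501 in each library, with the geometric mean and its SD on the log2 scale for each group of 4. The adherent groups (circles) lie above the spheroid groups (triangles) of the same shRNA in all panels, except that the shRELA groups of miR-500a overlap.

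Set beside other hairpins, the lower 5p to 3p ratio of miR-532, miR-500a and miR-501 in spheroids was the less common side. Among the 214 hairpins with both strands tested, the difference between the log2 fold changes of the 5p and the 3p strand (spheroid against adherent shNeg) had a median of 0.52 and quartiles of -1.09 and 2.40. The difference was -1.87 for miR-532, with 35 hairpins lower, -1.52 for miR-500a, with 39 lower, and -3.16 for miR-501, with 13 lower. These values were, without spheroid shNeg replicate 1, -2.21 (23 lower), -1.16 (46 lower) and -2.22 (22 lower), with a median over all of 0.41. With shRELA they were -1.32 (36 lower), -0.49 (62 lower) and -1.13 (41 lower), beside a lower quartile of -0.63. With shRELB they were -0.97 (54 lower), -1.23 (41 lower) and -1.38 (36 lower), beside a lower quartile of -0.99. Thus miR-500a with shRELA and miR-532 with shRELB lay within the quartiles. GC content moved with culture over all miRNAs. The median GC was 62.5% in the 167 miRNAs called higher and 45.5% in the 166 called lower that had a sequence, and 54.5% in all 795. Among the called members, miR-500a-5p had 47.8%, miR-362-5p 45.8% and miR-532-5p 54.5% GC, and all fell. miR-501-3p, which rose, also had 54.5%. Of the tested members not called, miR-532-3p (log2 fold change 0.83) had 63.6% and miR-188-5p (-1.22) had 61.9%. miR-500a-3p (-0.08) had 54.5%, and miR-502-3p (0.37) lay between miR-500a-5p and miR-501-3p. miR-660-5p had no matched sequence. The part of GC content or depth in these differences was not tested.

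The next question was how each knockdown differed from shNeg in the same culture; the comparisons of one culture share its 4 shNeg libraries. In adherent cells with shRELA no member was called by edgeR, DESeq2 or limma, where edgeR called 3.76% of all miRNAs, and 5 of 9 members had an unadjusted p under 0.05 against 18.1% of all. All 9 members had a log2 fold change above 0, from 0.41 to 0.73, compared with 55.0% of all miRNAs and a median over all of 0.09. In 8 of 9, all but miR-188-5p, every shRELA library lay above every shNeg library, against 9.83% of all miRNAs. miR-532-5p went from 582, 454, 578 and 524 CPM to 873, 715, 848 and 1033 CPM (0.70 ± 0.19, FDR 0.0176, edgeR). miR-502-3p went from 49.4, 34.7, 45.2 and 47.8 CPM to 77.6, 58.6, 76.9 and 79.3 CPM (0.72 ± 0.22, FDR 0.0278, edgeR).

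Both strands of a hairpin lay on the same side here, since miR-532-3p was at 0.50 ± 0.20 (FDR 0.146, edgeR) and miR-500a-3p at 0.65 ± 0.21 (FDR 0.0575, edgeR), beside miR-500a-5p at 0.41 ± 0.23. miR-660-5p (0.73), miR-362-5p (0.49), miR-188-5p (0.49) and miR-501-3p (0.45) had FDRs between 0.0802 and 0.533. The 6 other strands were also all above 0, from 0.27 to 1.43, and none was called. The 9 values stayed above 0 in each of the 18 alternative fits run for them, and the strand ratios of miR-532 and miR-500a overlapped between shRELA and shNeg (exact permutation p = 0.4 and 0.314).

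With shRELB in adherent cells no member was called by edgeR, DESeq2 or limma either, where edgeR called 7.07% of all miRNAs. 2 of 9 had an unadjusted p under 0.05, against 24.8% of all. They were the strands with the shared seed, miR-501-3p (0.75 ± 0.31, FDR 0.105, edgeR) and miR-502-3p (0.48 ± 0.22, FDR 0.148, edgeR), and each lay above the shNeg libraries in all 4 shRELB libraries. miR-500a-3p did so too, narrowly (lowest shRELB library 113.55 CPM, highest shNeg library 113.50 CPM). In all, 3 of 9 members lay wholly higher, and the share of all miRNAs that did so is not given. miR-188-5p had the lowest value, -0.39 ± 0.38, with overlapping groups. A direct comparison of the knockdowns in adherent cells called no member (10.8% of all miRNAs called; DESeq2 and limma also 0; 3 of 9 with an unadjusted p under 0.05, against 32.7% of all). miR-660-5p came nearest, at 54.2, 61.5, 56.2 and 52.8 CPM with shRELB against 121, 72.1, 80.6 and 128 CPM with shRELA (-0.84 ± 0.26, FDR 0.0157, edgeR), and its groups were separate.

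**Figure D4:**
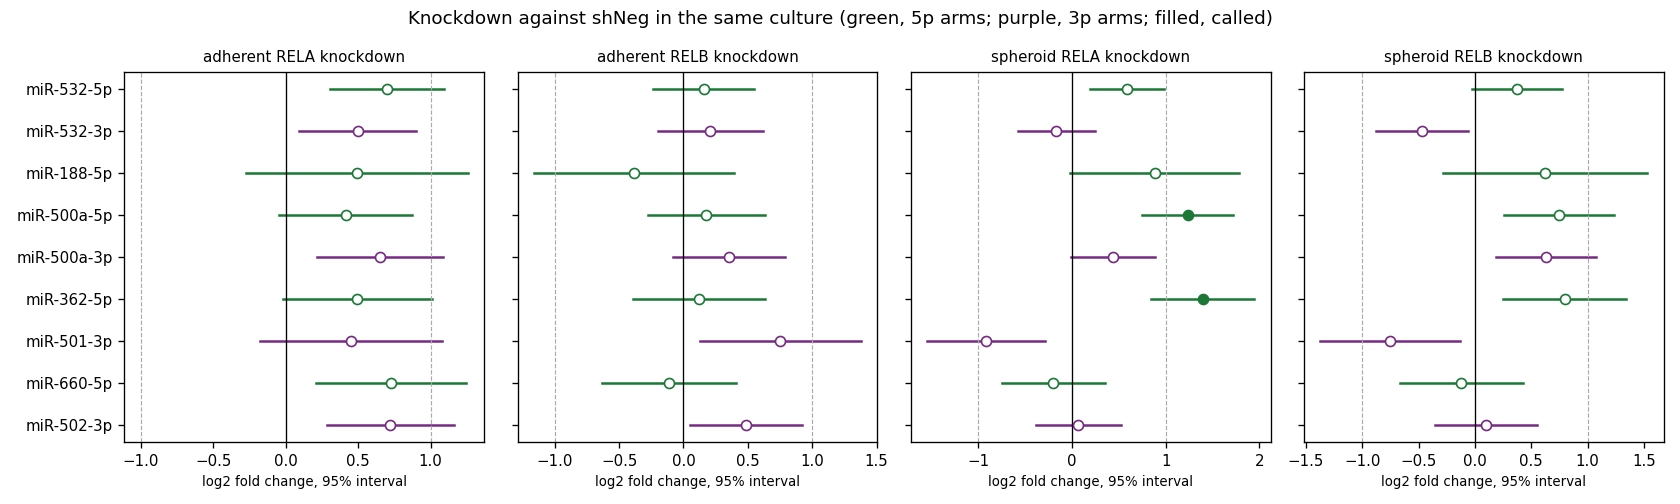
Log2 fold change of each knockdown against shNeg of the same culture (horizontal axis, with 95% interval) for the 9 tested miRNAs; colours and symbols as in the plot of culture changes. In adherent shRELA cells all 9 points lie above 0 (0.41 to 0.73) and none is called, and in spheroid shRELA cells miR-500a-5p (1.23) and miR-362-5p (1.39) are called while miR-501-3p lies at -0.92.

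In spheroids with shRELA 2 of 9 members were called, both higher, where 15.1% of all miRNAs were called and 7.51% were called higher. Of all calls 49.6% were higher with TMM, 34.8% with median-ratio scaling and 19.1% with library totals. miR-500a-5p was at 24.9, 33.6, 62.1 and 51.9 CPM with shNeg and at 117, 102, 92.6 and 97.3 CPM with shRELA, and rose by 1.23 ± 0.24 on the log2 scale (2.35-fold, FDR 1.70e-04, edgeR). miR-362-5p was at 12.5, 42.8, 52.3 and 56.1 CPM with shNeg and at 126, 102, 86.8 and 119 CPM with shRELA, and rose by 1.39 ± 0.27 (2.63-fold, FDR 1.54e-04, edgeR). These groups were separate, and both means stayed under the adherent shNeg means of 131 and 119.6 CPM. miR-500b-5p, outside the 10 members, was called higher as well (1.23 ± 0.33, FDR 0.00429, edgeR), but not without spheroid shNeg replicate 1 (0.89, FDR 0.00529, edgeR).

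The other 7 members were not called. miR-532-5p (0.59 ± 0.20, FDR 0.0224, edgeR), miR-188-5p (0.88 ± 0.45, FDR 0.14, edgeR) and miR-500a-3p (0.44 ± 0.22, FDR 0.14, edgeR) had positive values. miR-501-3p was negative, at 175, 88.6, 65.1 and 37.2 CPM with shNeg and 61.9, 46.7, 37.1 and 47.5 CPM with shRELA (-0.92 ± 0.31, FDR 0.0236, edgeR). Without spheroid shNeg replicate 1 the values of miR-500a-5p and miR-362-5p were 1.04 and 1.10, both still called, and miR-501-3p was at -0.40 (FDR 0.256). miR-501-3p was called lower without spheroid shNeg replicate 3 (-1.11) or 4 (-1.21) and in 4 alternative fits (-1.09 to -1.28), with library totals both 5p calls dropped under 2-fold (0.83 and 0.97), and miR-362-5p missed the FDR in a fit of the 2 groups alone (FDR 0.0144).

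In spheroids with shRELB no member was called by edgeR, DESeq2 or limma, where edgeR called 13.4% of all miRNAs, and 5 of 9 had an unadjusted p under 0.05 against 36.9% of all. miR-362-5p was at 91.2, 63.2, 74.9 and 57.6 CPM with shRELB, above the 4 shNeg libraries (0.80 ± 0.27, FDR 0.0265, edgeR). miR-500a-3p was likewise above them, at 160.2, 128.0, 135 and 171 CPM against 127.6, 82.5, 86.7 and 87.7 CPM (0.63 ± 0.22, FDR 0.031, edgeR). miR-500a-5p (0.74 ± 0.24, FDR 0.0196, edgeR) overlapped with shNeg, as did miR-532-3p (-0.47 ± 0.20) and miR-501-3p (-0.75 ± 0.31). Without spheroid shNeg replicate 1 miR-500a-5p was at 0.55, miR-362-5p at 0.50 and miR-501-3p at -0.22, and without replicate 4 miR-501-3p was called lower (-1.07). The direct comparison of the knockdowns in spheroids called no member (6.63% of all called; DESeq2 and limma also 0; 2 of 9 with an unadjusted p under 0.05, against 28.5% of all), with miR-362-5p at -0.60 ± 0.26 and miR-500a-5p at -0.49 ± 0.23 for shRELB against shRELA.

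Whether a knockdown changed a member differently in the 2 cultures was tested as an interaction. No member was called for either factor by edgeR, where 7.62% of all miRNAs were called for RELA and 8.51% for RELB; DESeq2 called 2 and 1 members and limma none, and 6 of 9 and 2 of 9 members had an unadjusted p under 0.05, against 28.1% and 28.3% of all. miR-501-3p came nearest, with a knockdown change that was lower in spheroids by 1.37 ± 0.44 for RELA (log2 difference -1.37, FDR 0.0324, edgeR) and by 1.503 ± 0.43 for RELB (-1.503, FDR 0.0142, edgeR). Without spheroid shNeg replicate 1 these differences were -0.84 and -0.97, and without replicate 4 both were called (-1.55 and -1.65). With all libraries, the RELA difference was 0.82 ± 0.33 for miR-500a-5p and 0.90 ± 0.37 for miR-362-5p, and it was -0.92 ± 0.37 for miR-660-5p and -0.66 ± 0.28 for miR-532-3p, with FDRs from 0.0957 to 0.115 (edgeR). For RELB miR-532-3p was at -0.68 ± 0.28 (FDR 0.106, edgeR). With spheroid shNeg replicate 1 left out, the RELA differences were 0.63, 0.61, -1.08 and -0.80 in the same order, the RELB difference of miR-532-3p was -0.82, and none of these was called.

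Over the 6 group means the members did not follow a single profile. 7 of the 9 tested members had their highest mean in adherent shRELA cells, from 29.2 CPM for miR-188-5p to 867 CPM for miR-532-5p, whereas miR-532-3p (346 CPM) and miR-501-3p (91.5 CPM) were highest in spheroid shNeg cells. The share of all tested miRNAs that were highest in either group is not given, so these counts only describe the members. The order of miR-532-5p ran from adherent shRELA (867 ± 131, SD) over adherent shRELB (596 ± 58.7) and adherent shNeg (535 ± 60.1) to spheroid shRELA (391 ± 66.6), shRELB (337 ± 53.2) and shNeg (260.2 ± 78.2). In that order only the first pair of neighbours, adherent shRELA and adherent shRELB, did not overlap. miR-362-5p followed the same order, with means of 168, 130.0, 119.6, 108, 71.7 and 40.9 CPM, and miR-500a-5p did so too, with 175, 148, 131, 102, 73.0 and 43.1 CPM. miR-501-3p had another order, from spheroid shNeg (91.5 ± 59.6) over spheroid shRELB (54.2 ± 15.0) and shRELA (48.3 ± 10.2) to adherent shRELB (27.9 ± 2.70), shRELA (22.6 ± 0.976) and shNeg (16.4 ± 3.52), where neighbouring spheroid groups overlapped and the other neighbours did not.

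Likeness was described by Pearson's r of the group means of log2(CPM + 1) over the 6 groups, which share libraries, scaling and culture. No p is given. The 10 pairs of 5p strands had r from 0.68 to 0.99 with a median of 0.91. The 6 pairs of 3p strands had r from -0.15 to 0.80 (median 0.32), and the 20 pairs of a 5p with a 3p strand had r from -0.88 to 0.60 (median -0.06). For comparison, all 55945 pairs of tested miRNAs that averaged 10 CPM or more had a median of 0.07. The medians of the 3 kinds of pair were, without spheroid shNeg replicate 1, 0.86, 0.15 and 0.03. The 5p strands come from 5 hairpins. In these values every pair of them was more alike than the strands of the miR-532 hairpin, whose r was -0.51 (-0.61 without that library). The strands of the miR-500a hairpin had an r of 0.49, also below the lowest 5p pair but above the median of the 3p pairs. Outside the locus, of 324 candidates, the miRNAs most like the members' mean profile were miR-30a-5p (r = 0.96), miR-28-3p (0.95) and miR-4454 (0.92), which also came first without that library (0.93, 0.93 and 0.91); miR-30a-5p was at 440 CPM in adherent shNeg, 1829 in adherent shRELA and 144.1 in spheroid shNeg cells.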

How the data were processed

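Small RNA libraries of OV90 cells (24, in 6 groups of 4) were analysed from 1 table of 2656 mature miRNAs. Per the methods, the authors built QIAseq libraries with molecular indexes, trimmed reads with Cutadapt, assigned them to miRBase for GRCh38 with miRDeep2 and tested with edgeR; whether the indexes were collapsed is not stated. The deposited values are estimated counts, not scaled, although the table is titled as CPM; 3.04% of non-zero values were not whole and were rounded, and all values of the members were whole. The limma test planned for a table of CPM was therefore run as an alternative only.

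The 905 miRNAs that reached 1 CPM in 4 or more libraries were fitted in R 4.3.3 with edgeR 4.0.16 (quasi-likelihood, TMM, the 6 groups as the only term, common dispersion 0.0888). A call needed an FDR below 0.01 over all 905 and a fold change above 2. Standard errors were derived from the log2 fold change and its F statistic. Strand ratios used counts plus 0.5 and two-sided exact permutation tests (scipy 1.17.1). Alternatives were DESeq2 1.42.0, limma 3.58.1 on log2(CPM + 1), 2 other scalings, other filters, an FDR of 0.05 and a replicate block. Each library of the groups compared, and spheroid shNeg replicate 1 in every comparison, was also left out in turn. The values without spheroid shNeg replicate 1 of other strands, hairpin differences, 2 of the ratios and profile correlations were added after seeing the data. The scripts were tested on simulated data. Named genes were the 10 members, the 6 other strands and the 3 most similar miRNAs; members and lists were chosen with earlier results of these data known. Replicate correlations within groups ran from 0.894 to 0.995, so no library was counted as a duplicate.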

Additional observations from a re-analysis of the deposited data

Results flagged for a closer look

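For 6 of the 57 groups of 4 libraries with any spread (10 members in 6 groups), 1 library lay far from the other 3 by Dixon's criterion; chance alone marks about 1 in 20 groups. In adherent shNeg cells all 3 such values were from replicate 2, with miR-188-5p at 30.9 CPM (others 17.0 to 18.2), miR-500a-3p at 73.6 CPM (others 108 to 114) and miR-501-3p at 11.2 CPM (others 17.6 to 18.6). In adherent shRELA cells replicate 2 had miR-502-3p at 58.6 CPM (others 76.9 to 79.3). In spheroid shNeg cells miR-500a-3p was at 128 CPM in replicate 1 (others 82.5 to 87.7), the library with 432 miRNAs detected. miR-362-3p was at 0.764 CPM in spheroid shNeg replicate 2, which is 1 count where the other libraries had 0.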

How the results depend on the processing

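The number of members called in adherent RELA and RELB knockdown and in both direct comparisons of the knockdowns was 0 in every alternative run. These included leaving out each library of the groups compared and spheroid shNeg replicate 1, but no other library. In spheroid RELA knockdown the count of 2 became 1 with library totals, where both 5p calls were lost and miR-501-3p was called lower (-1.28). It became 1 in a fit limited to the 2 groups, and ranged from 2 to 3 on leaving out a library. With median-ratio scaling, a mean of at least 10 CPM or DESeq2, miR-501-3p was called lower beside the 5p strands. In spheroid RELB knockdown the count ranged from 0 to 1 on leaving out a library. Spheroid against adherent shNeg ranged from 3 to 5 on leaving out a library, and shRELA from 2 to 3. For shRELB the count of 1 became 0 with library totals and 2 without a low-count filter, and ranged from 0 to 2. The interaction count of 0 became 2 for RELA with DESeq2, and 1 with median-ratio scaling, library totals, a mean of at least 10 CPM or an FDR of 0.05; for RELB it became 1 in those settings, with DESeq2 and without a filter. Both ranged from 0 to 1 on leaving out a library.

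In spheroid against adherent shNeg, miR-500a-3p turned positive with median-ratio scaling (0.0525), library totals (0.35), a mean of at least 10 CPM (0.32), DESeq2 (0.0495) and only the groups compared (0.18), and miR-660-5p with library totals (0.0775) and a mean of at least 10 CPM (0.00373). Of 1053 alternative values of 57 single results, 987 kept direction and call, 25 lost and 34 gained a call, and 7 changed sign. These include the FDR of 0.05, which can change a call but not a value. Among strand ratios, miR-362 in spheroid against adherent shRELA went from 0.00407 to -0.58 with 1 count added and ranged from -0.23 to 0.57 on leaving out a library. Leaving out a library also gave both signs for miR-362 with shRELB (-0.69 to 0.12), miR-532 in adherent RELB knockdown (-0.10 to 0.0314) and miR-500a in spheroid RELB knockdown (-0.21 to 0.42). The cause of these changes was not tested.

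Same-numbered libraries of a culture did not deviate together (1 of 24 pairs with a correlation above 0.1, 10 of 72 for different numbers). A replicate block, within culture for the knockdowns and by number, chosen after seeing the data, for the cultures, changed no call (4, 3 and 1 members for shNeg, shRELA and shRELB; 2 in spheroid RELA knockdown; 0 elsewhere). With 4 libraries per group and spheroid totals down to 959141 counts, members under about 20 CPM rest on few counts, such as 16 to 20 for miR-188-5p in 3 spheroid shNeg libraries.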
